A study of Homo sapiens with 6 samples.

Results

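EndoC-βH1 is a human beta cell line derived from fetal pancreas, immortalised with SV40 large T antigen under the insulin promoter and with human telomerase reverse transcriptase. The unexposed cells of the study are described here on their own: 3 of its 6 libraries, chosen because their labels name them as controls. Control cells were seeded at 75000 per well at 70% confluence on Matrigel-fibronectin, left for 24 h to adhere in serum-free medium with 11 mM glucose, and received no cytokine. The labels place the controls before exposure, whereas the extraction protocol describes cells kept with or without cytokines for 24 h, so the length of culture of the controls is not settled by these sources. The labels do not say whether the 3 libraries came from separate cultures, and the line is a single established line, so no donor variation is covered.

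A beta cell makes proinsulin, cuts it with prohormone convertases and carboxypeptidase E inside secretory granules, and releases it when glucose metabolism closes the ATP-sensitive potassium channel and opens calcium channels. Its identity is kept by a set of transcription factors, among them PDX1, NKX6-1, MAFA and NEUROD1. Beta cells also carry receptors for interferon-γ, interleukin 1, tumour necrosis factor and interleukin 17, and the control state shows which parts of these pathways were transcribed before any of these cytokines was added.

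Levels are the control values of the authors' deposited Cuffdiff tables in FPKM (fragment counts scaled by transcript length and library size), so that levels of different genes can be compared per length. Each is 1 value for the control group, with no value per library and no error. No test between genes was therefore possible, and order between close values is not established. The spread between libraries could be worked out only for the separate count tables, from the standard error of the deposited fold change. That spread includes counting noise and assumes the same dispersion in both groups. It had a median coefficient of variation (CV) of 3.31% for loci of 1000 or more normalised counts in control, 8.20% from 100 to 1000 counts and 31.3% from 10 to 100 counts. The control counts summed to 3.98e+07 per library. A locus is a bundle of assembled transcripts that can hold several genes, and its FPKM then belongs to all of them. For a gene in such a bundle, the sum over transcripts carrying its own symbol is given as well; transcripts without a name in the bundle are left out of that sum.

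The gene table held 63707 loci, of which 21865 (34.3%) had the status OK, 41605 were marked by Cuffdiff as too low to test (NOTEST), 228 as too deep to estimate (HIDATA) and 9 as failed. Among the 21865 loci, 14362 (65.7%) were at or over 1 FPKM, the level taken here as detected, and 311 were listed at 0. The median was 3.55 FPKM with quartiles of 0.557 and 17.2, and 807 loci reached 100 FPKM. Only 300 of the NOTEST loci reached 1 FPKM, so a gene of that status is nearly always a low one by FPKM. Counts differed for 29 NOTEST loci, which were listed at 0 FPKM with at least 1000 counts. Medians given over status OK alone leave NOTEST genes out, and list counts are therefore given over all matched members.

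Among loci of status OK, housekeeping and translation genes ranked highest, with some granule genes close behind. The ranking leaves out the HIDATA loci, whose control counts reached 562880. CHGA and INS are among the loci left out. The highest locus, at 2112 FPKM, was ACTG1 (γ-actin) together with AC139149.1. Of the loci with a single symbol, FTL (ferritin light chain) stood at 2041 FPKM, RPL37A at 1715, EEF1A1 (translation elongation) at 1692 and FTH1 (ferritin heavy chain) at 1572. CPE, carboxypeptidase E, which trims the ends of cut prohormones, came next at 1284 FPKM, the 6th of all OK loci, on chromosome 4 from 165361194 to 165498547 (hg38, plus strand). PCSK1N (proSAAS, a granule protein and inhibitor of PCSK1) was 14th at 1065 FPKM on chromosome X from 48831096 to 48835610. TTR (transthyretin, an islet and liver carrier protein) was 16th at 1020.5 FPKM. The counts behind these secretory genes were deep: 96330 for CPE with a CV of 1.36%, 42766 for PCSK1N with 2.01% and 35144 for TTR with 2.05%.

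The rest of the 25 most abundant single-symbol loci were mostly genes that every cell uses. GAPDH (glycolysis) stood at 1192 FPKM, PPIA at 1121, TMSB4X at 1029, TUBA1B at 981, TMSB10 at 949, HNRNPA1 at 865, TUBA1A at 778, B2M at 765 and CFL1 at 718. ACTB (β-actin) shared its locus with AC006483.1 at 845 FPKM. The ribosomal protein genes among them, besides RPL37A, were RPS27, RPS24, RPS21, RPS16, RPL31, RPS23, RPLP0, RPS19 and RPS15, from 1233 FPKM for RPS27 to 732 for RPS15. Counts did not bear out every level. Divided by transcript length and scaled to FPKM, as given below for CHGA, they gave 148 for TUBA1B. The same scaling gave 319 for B2M, 425 for PPIA and 713 for GAPDH, also below the listed values, and 1054 for RPLP0, above its listed 786. All 85 cytosolic ribosomal protein loci together held 9.71% of the summed FPKM and filled 45 of the first 100 places. The 25 most abundant loci held 6.71% of the summed FPKM, the first 100 held 17.2%, and 960 loci made up 50% of it.

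**Figure D1:**
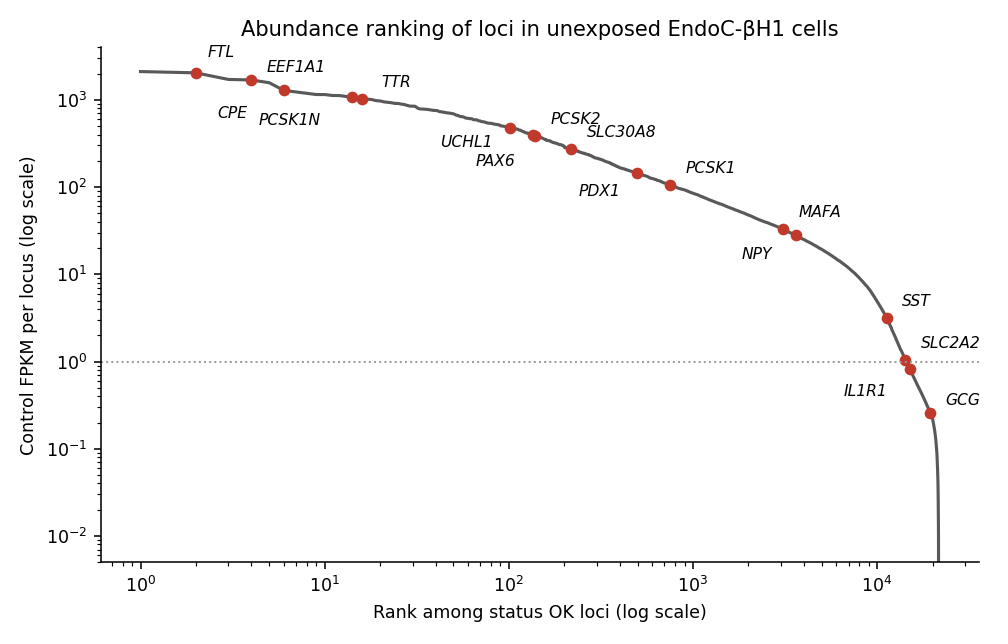
Control FPKM of each status OK locus above 0 against its rank, both on log scales; red points mark named single-symbol loci and the dotted line is 1 FPKM. Granule genes such as CPE and PCSK1N sit above 1000 FPKM, SLC2A2 lies next to the line and GCG lies below it.

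The 2 best known products of the beta cell granule have no usable FPKM. INS (insulin; chromosome 11 from 2159779 to 2161221, minus strand) lay in a HIDATA bundle with IGF2, H19, ASCL2, INS-IGF2 and 2 further models, AC051649.1 and AC132217.4, listed at 0 FPKM. That bundle had 56569 normalised counts in control (CV 3.99%), which belong to all of its genes, so no level of insulin mRNA can be given. CHGA (chromogranin A, the major soluble granule protein; chromosome 14 from 92923150 to 92935285) was a HIDATA locus of its own, also listed at 0 FPKM, with 136426 control counts (CV 1.58%). Dividing that count by transcript length and scaling it on 8496 single-symbol loci placed CHGA near 1956 FPKM, between 1652 and 2661 with the quartiles of the scaling; 2 OK loci lie above 1956. On those loci, each with at least 100 counts and 1 FPKM, 87.7% of scaled counts fell within 2-fold of the FPKM. For CPE the same scaling gave 1062 against the listed 1284 FPKM.

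Most of the other granule genes were high. Of 20 granule protein genes, 18 had a usable FPKM, 16 of these were at or over 1 FPKM, 13 at or over 10 and 8 at or over 100, with a median of 119 FPKM over the 16 of status OK. After PCSK1N came SLC30A8, the zinc transporter that loads zinc for insulin crystals, at 273 FPKM (33893 counts, CV 1.72%). SCG5 (7B2, the chaperone of PCSK2) stood at 255 FPKM, CHGB (chromogranin B) at 231, and SCG3 (secretogranin III) at 193. TSPAN7, a membrane protein and autoantigen, had 235 FPKM in its own transcripts, and 244 in a bundle with CYBB, LANCL3, PRRG1, XK, RP11-357K9.2 and RP5-972B16.2. HEPACAM2 stood at 167 FPKM and PTPRN2 (phogrin, or IA-2β) at 141. Its relative PTPRN (IA-2), with status FAIL, was listed at 365 FPKM with 52297 counts. The low end held G6PC2 at 7.96 FPKM, CLTRN at 2.17 (0.922 in transcripts of that name) and SLC18A2, the vesicular monoamine transporter, at 1.43 FPKM, whereas SLC18A1 at 0.0403 and RESP18 at 0.0143 were near 0.

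Each of the 10 genes of prohormone processing was at or over 10 FPKM, from CPE down to CPD (carboxypeptidase D) at 27.0. PCSK2, the convertase that acts late in proinsulin cutting, stood at 387 FPKM with 46515 counts (CV 1.40%), above PCSK1 at 106 FPKM with 21943 counts (CV 1.601%). ERO1B, the oxidase that supports disulphide formation in proinsulin, stood at 215 FPKM, QPCT (glutaminyl cyclase) at 133 and PDIA4 (disulphide isomerase) at 124.

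Peptide hormones with a usable level ranged from 0 to 28.0 FPKM by their own transcripts. Of 17 hormone genes, 7 loci were at or over 1 FPKM, and 6 genes when only own transcripts are summed. The difference is GHRL (ghrelin), whose bundle with SEC13 stood at 79.6 FPKM while its own transcripts summed to 0.245. NPY (neuropeptide Y) at 28.0 FPKM and UCN3 (urocortin 3, a marker of mature beta cells) at 27.9 led the list, followed by GAST (gastrin) at 7.61 and ADCYAP1 (PACAP) at 4.15. IAPP, the islet amyloid polypeptide that is secreted with insulin, had 1.32 FPKM in its own transcripts and 3.84 in a bundle with SLCO1B1, SLCO1B3, SLCO1B7, RP11-125O5.2 and RP11-545J16.1. The bundle had 148 counts (CV 10.2%). SST (somatostatin, of delta cells) stood at 3.15 FPKM with 63.0 counts. GCG (glucagon, of alpha cells) stood at 0.258 FPKM with 7.34 counts (CV 67.9%), PYY at 0.325, CARTPT at 0.297, CCK at 0.143 and PPY (pancreatic polypeptide) at 0.0231. NMU, GAL and TRH lay under 0.1 FPKM and VIP was listed at 0.

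The exocytosis machinery was present almost in full: 28 of 29 genes were in loci at or over 1 FPKM and 26 by own transcripts. SYP (synaptophysin, a vesicle membrane protein) stood at 307 FPKM, CADPS (a priming factor of dense-core granules) at 122 and STX1A (a plasma membrane SNARE) at 118. RAB3D, of vesicle docking, had 39.0 FPKM in its own transcripts and 86.0 with TMEM205 and CTC-510F12.4, and NAPA 63.6 and 83.3 with RP11-43N16.4. SNAP25, the SNARE that pairs with STX1A, stood at 60.9 FPKM. The one member near 0 was SYTL4 (granuphilin), at 0.00362 FPKM with 0.457 counts.

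Glucose transporters stood at unequal levels. SLC2A1 (GLUT1) stood at 39.99 FPKM with 2747 counts (CV 3.69%), whereas SLC2A2 (GLUT2) stood at 1.04 FPKM with 116 counts (CV 14.99%). The low-Km hexokinases were low: HK3 0.429, HK1 0.203 and HK2 0.0113 FPKM. PKM (pyruvate kinase) led the list at 282 FPKM, and PDHA1 (pyruvate dehydrogenase) stood at 93.2 and SLC25A1 (citrate carrier) at 92.2. KCNK16 (TALK-1) had 15.96 FPKM of its own within a bundle with KCNK17 at 95.7. The subunits of the ATP-sensitive potassium channel lay close together, ABCC8 (SUR1) at 28.5 and KCNJ11 (Kir6.2) at 28.4 FPKM, but KCNJ11 had only 141 counts. G6PC2, the islet glucose-6-phosphatase, stood at 7.96 FPKM. In all, 21 of 29 loci were at or over 1 FPKM, and 19 genes by own transcripts. Loci below that level, besides the hexokinases, were TRPM5 at 0.728, KCNQ1 at 0.307, PKLR at 0.0780, GCKR at 0.0579 and SLC2A3 at 0.0145.

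Of 22 receptor genes, 17 loci were at or over 1 FPKM, and 15 genes by own transcripts. FFAR1 (the long-chain fatty acid receptor GPR40) shared a bundle at 122 FPKM with FFAR3 and GPR42; its own transcripts summed to 35.9, and the leading transcript of that bundle, at 69.1, carried no name. CASR (calcium sensing) stood at 66.5 FPKM, GPR142 (a tryptophan receptor) at 61.0 with 6.02 in transcripts that carry its name, SSTR3 at 51.3, and SSTR2 at 32.4 in its own transcripts (55.0 with COG1 and RP11-143K11.5). GIPR (the GIP receptor) had 19.6 FPKM of its own, 34.3 with MIR642A. GLP1R (the GLP-1 receptor) stood at 2.94 FPKM, of which 0.467 lay in transcripts of that name, with 629 counts (CV 7.09%). Receptors under 1 FPKM were GCGR at 0.963, ADORA1 at 0.129, PRLR at 0.105, MTNR1B at 0.0383 and GALR1 at 0.00143.

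Of 26 beta cell transcription factors, 25 loci were at or over 1 FPKM, and 24 genes by own transcripts. The median was 33.0 FPKM over the 25 loci, against 3.55 over all OK loci. INSM1 stood at 416 FPKM, PAX6 at 395, NEUROD1 at 187 in its own transcripts (206 with CERKL), PDX1 at 145 and NKX2-2 at 90.1 (109 with RP5-984P4.6). NKX6-1, which sets beta over alpha identity, stood at 91.3 FPKM, and MAFA, the late maturation factor, at 33.0. Only NKX6-2 was near 0, at 0.00269 FPKM. Counts did not bear out the top of this order: INSM1 had 21.5 control counts, while PDX1 had 17183 (CV 1.82%) and PAX6 26947 (CV 1.81%). INSM1 has a single exon. Of 82 single-exon genes at or over 10 FPKM, 33 (40.2%) had a length-scaled count at least 10-fold below the FPKM, compared with 53 of 5417 genes with more exons (0.978%); the reason was not tested. The same gap touched KCNJ11, MNX1, SSTR1, SOX4 and CLDN4 among the listed genes.

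**Figure D2:**
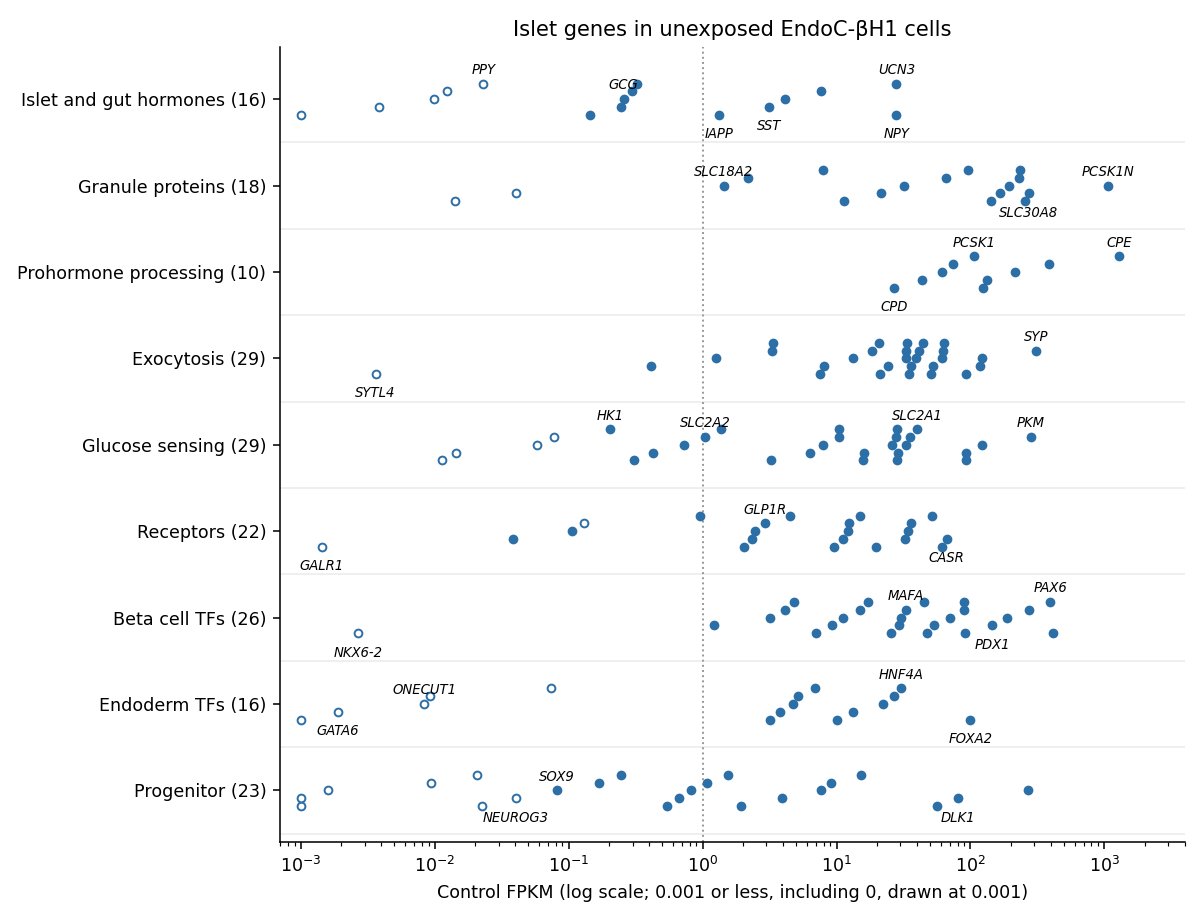
Control FPKM on a log scale for each gene of 9 lists of islet genes, with the number of genes drawn in parentheses; filled points have status OK, open points NOTEST, and genes in shared bundles are drawn by their own transcripts. Processing genes all lie above 10 FPKM, and INS, CHGA and PTPRN, without a usable value, are not drawn.

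Endoderm factors divided into a detected and a near-silent set, with none between 0.0742 and 3.16 FPKM. FOXA2 stood at 99.9 FPKM, GATA4 at 26.7 (37.5 with C8orf49), HNF4A at 30.3, PROX1 at 13.4 and FOXA1 at 10.1, and 11 of 16 were at or over 1 FPKM. The near-silent set included NR5A2 at 0.0742, ONECUT1 at 0.00833 and GATA6 at 0.00190 FPKM, and SOX17, listed at 0. SOX17 had 0 control counts and NR5A2 had 12.7.

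Progenitor genes were mixed. CD81 stood at 268 FPKM (294 with TSSC4), DLK1 at 80.7, SOX4 at 55.8 with 3.47 counts, MYCN at 15.1 and IGF2BP3 at 9.14. SOX11 had 0.669 of its own within a bundle at 29.5 with AC010729.1. The leading and second transcripts of that bundle, at 10.5 and 6.73 FPKM, carried no name and are not in the 0.669. By own transcripts, 9 of the 23 genes were at or over 1 FPKM. By locus, 12 were under 1 FPKM, among them the endocrine progenitor factor NEUROG3 at 0.0402, SOX9 at 0.0823, HES1 at 0.244, MYC at 0.169, POU5F1 at 0.540, NANOG at 0.0209 and PTF1A, listed at 0. ALDH1A3, a marker of dedifferentiated beta cells, had 0 FPKM in its own transcripts and 0.0476 in a bundle with RP11-66B24.1, RP11-66B24.2, RP11-66B24.7 and RP11-66B24.8.

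Genes that primary beta cells usually keep low were not uniformly low: 13 of 19 loci (68.4%) were at or over 1 FPKM, and 11 by own transcripts. That share was close to the 65.7% of all OK loci. LDHA (lactate dehydrogenase) stood at 55.4 FPKM, LMO4 at 53.7, CXCL12 at 41.7, CD44 at 36.9 and ACOT7 at 28.3. PDGFRA had 0.107 of its own within a bundle at 25.8 with FIP1L1 and AC098587.1, and YAP1 0.0593 of 3.33 with C11orf70. SLC16A1, the lactate and pyruvate transporter, stood at 7.19 FPKM. The members under 1 FPKM were ARHGDIB at 0.894, ZFP36L1 at 0.799, REST (the repressor of neuronal genes) at 0.792, MGLL at 0.527, HK1 and TGM2 at 0.0326.

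Cell cycle genes were detected nearly throughout. Of 33 genes, 31 were at or over 1 FPKM and 28 at or over 10. RRM2 stood at 272 FPKM, PCNA (replication clamp) at 268, TOP2A at 105 and MKI67 at 21.0. The inhibitors CDKN2C (p18) at 188 FPKM, CDKN2A (p16 and p14ARF) at 167 and CDKN1C (p57) at 105 were high as well, while CDKN1A (p21), a target of p53, stood at 1.98. The D-type cyclins CCND1 at 0.00931 and CCND2 at 0.00359 FPKM were near 0, and CCND3 stood at 39.2.

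Markers of other islet cells were present only in part. In the alpha cell list, 9 of 13 genes were at or over 1 FPKM: TTR, then GC (vitamin D binding protein) at 502 FPKM, CRYBA2 at 296, IRX2 at 33.2, TM4SF4 at 15.1 and DPP4 at 13.9 were the highest. GCG, the alpha cell hormone, lay at 0.258, with FAP at 0.0123 and POU3F4 at 0.00752. In the delta list, RBP4 stood at 29.4 FPKM and SST at 3.15, and LEPR had 2.25 of its own in a bundle at 23.6 with LEPROT. The delta factor HHEX lay at 0.0847, with FRZB at 0.266, BCHE at 0.217 and PRG4 at 0.0257. Among PP and epsilon markers, ACSL1 at 24.6, AQP3 at 2.43 and PHGR1 at 2.27 FPKM were the only ones at or over 1 by their own transcripts, while SLC6A4 stood at 0.529 and SERTM1 at 0.367.

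Exocrine acinar genes were near 0 apart from CPA1 (carboxypeptidase A1) at 33.7 FPKM with 1905 counts. Of 24 matched genes, 19 loci were under 1 FPKM, 16 of them under 0.1, and PRSS1 (trypsinogen), PNLIP (lipase) and AMY2A (amylase) were listed at 0. SPINK1, a trypsin inhibitor, stood at 3.28 FPKM. AMY2B had 0.462 of its own in a bundle at 7.28 with RNPC3 and ACTG1P4, CUZD1 0.222 of 4.37 with FAM24B, and CEL 0.227 of 0.305 with CELP. The transcription factors BHLHA15 at 0.281 and RBPJL, listed at 0, were low too.

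Genes of the ductal list lay at both ends of the range. EPCAM stood at 352 FPKM, KRT8 at 196, KRT18 at 62.9 (64.8 with AC107016.1), KRT19, a keratin of duct cells, at 49.4, CLDN4 at 29.9 with 13.6 counts, and ANXA4 at 27.9. CFTR lay at 0.119, KRT7 at 0.276, SOX9 at 0.0823 and SPP1 at 0.0263. MUC1 had 0.229 of its own in a bundle at 90.6 with KRTCAP2 and RP11-201K10.3. In all, 12 of 19 loci were under 1 FPKM.

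Stromal, endothelial and blood cell genes were at or near 0 for their defining members. VIM (vimentin), abundant in nearly every mesenchymal cell, was listed at 0 FPKM with 0 counts; a count of 0 allows up to 3 counts over the control group, or 0.0251 counts per 1e+06, for counting error only. COL1A2, COL3A1, DCN, THY1 and PDGFRB ranged from 0.0351 FPKM for COL3A1 to 0.170 for PDGFRB, and LUM was listed at 0. Of the stromal list, FN1 (fibronectin) at 11.1, RGS5 at 4.91, COL1A1 at 3.21, TIMP1 at 1.46 and TAGLN at 1.09 (12.6 with SIDT2 and AP000892.6) were at or over 1 FPKM by own transcripts; 64.6% of the FPKM of RGS5 came from a transcript that GENCODE release 44 gives to another gene. Endothelial genes were under 1 FPKM in 12 of 13 cases, with ESAM at 2.81, ENG at 0.203, CLDN5 at 0.0579, FLT1 at 0.0136, TIE1 at 0.0111 and PECAM1 at 0.00409, and CDH5, KDR and EMCN listed at 0. Leukocyte genes were under 1 FPKM in 19 of 22 cases: LAPTM5 stood at 0.149, CSF1R at 0.102, CD79A at 0.0998 and PTPRC (CD45) at 0.0274, CD3E was listed at 0, and CORO1A at 7.32, AIF1 at 1.87 and CD14 at 1.29 were the exceptions.

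Of the 12 marker lists of other cells, the neuronal list had the most members at or over 1 FPKM. Of 25, 19 were at or over 1 FPKM and 14 at or over 10, with UCHL1 at 481 FPKM, STMN2 at 319, TUBB3 at 129 (201 with TCF25, MC1R and RP11-566K11.7), CELF3 at 137, ELAVL3 at 51.7 (84.8 with ECSIT, ZNF653 and CTC-398G3.6) and GAD2 at 70.4. Beta cells are known to share many neuronal genes, GAD2 among them. Members under 1 were GAD1 at 0.856, NEFL at 0.519, SRRM4 (a neuronal splicing factor) at 0.181, NEFH at 0.0888 and SLC17A7 at 0.0711 FPKM among 6 such genes. Glial genes were low: MBP at 17.6 (with RP11-862L9.2), OLIG1 at 3.03 and AQP4 at 1.47 of 58.1 with CHST9 were at or over 1, while GFAP at 0.102, S100B at 0.0395, SOX10 at 0.0106, MOG at 0.00421 and OLIG2 at 0.330 were not.

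Liver and gut genes were low except TTR and VIL1 (villin, a microvillus protein) at 356 FPKM with 33971 counts (CV 1.48%). CDX2, the intestinal factor, stood at 5.14 FPKM APOB at 1.39 and SERPINA1 at 0.333, and 14 of 19 loci were under 1, with ALB (albumin) at 0.0775 and AFP at 0.0644. TF had 0.0663 of its own in a bundle at 1.63 with TFP1. In other neuroendocrine genes, DDC (aromatic amino acid decarboxylase) stood at 87.1 FPKM and POMC at 22.7. TPH1, which makes serotonin, had 0.127 of its own in a bundle at 26.8 with SERGEF and RP1-59M18.2, and TPH2 1.65 of 4.74 with TRHDE. SLC6A2 had 0.604 of 2.78 with RP11-481F24.3, and CALCB at 0.591, DBH at 0.0570, GH1 at 0.0429 and CALCA at 0.00900 were under 1, with PRL listed at 0.

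**Figure D3:**
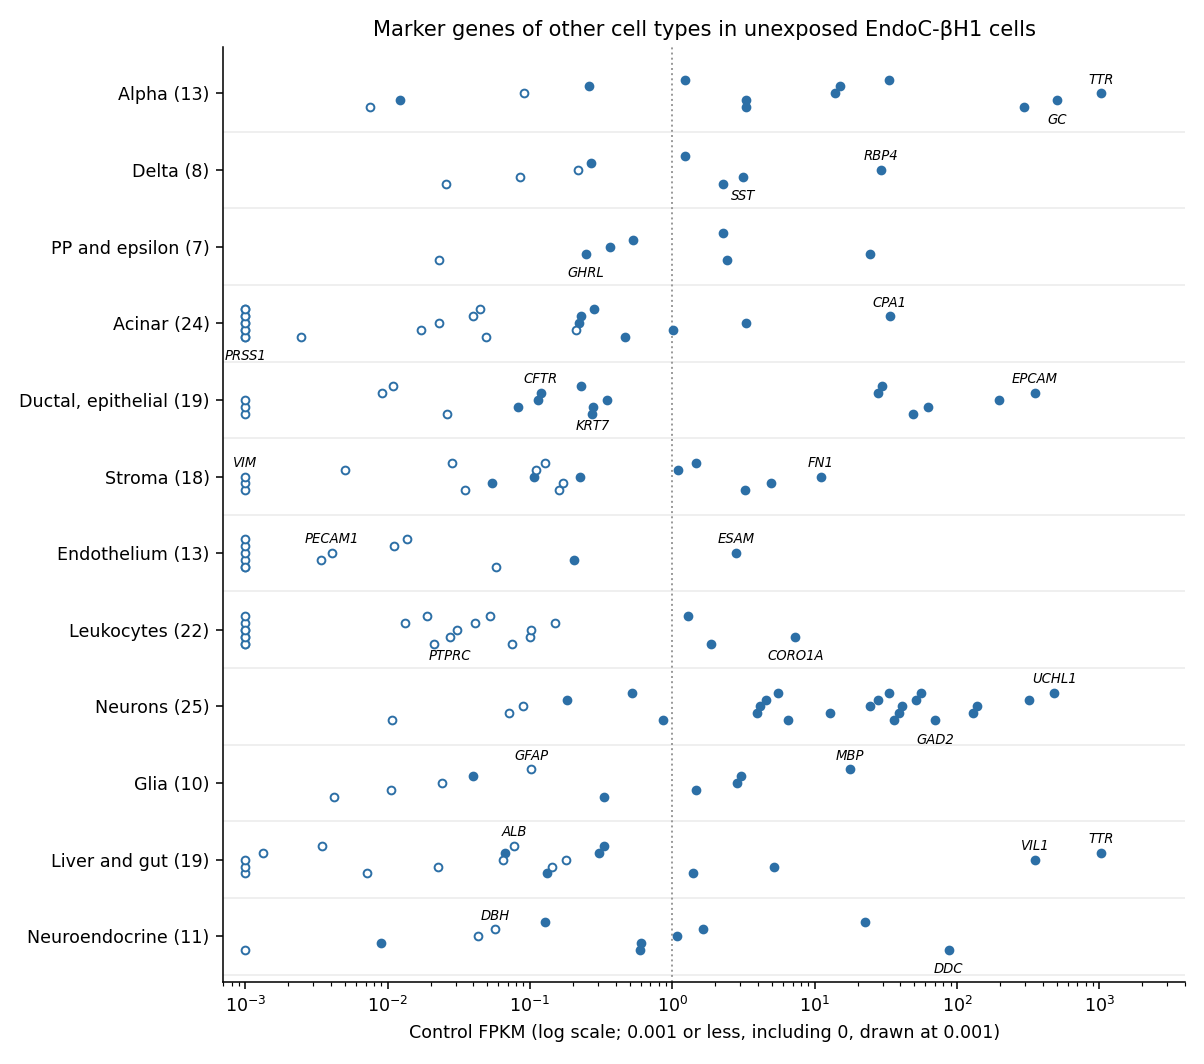
Control FPKM on a log scale for marker genes of 12 other cell types, drawn as filled points for status OK and open points for NOTEST, with genes in shared bundles drawn by their own transcripts. Acinar, stromal, endothelial and leukocyte markers lie mostly left of the dotted line at 1 FPKM, neuronal and keratin-bearing epithelial markers reach far beyond it.

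Receptors for the cytokines of the study were transcribed at unequal levels. The interferon-γ receptor chains stood at 30.2 FPKM for IFNGR2 (CV of counts 4.30%) and 15.3 for IFNGR1 (CV 4.45%). TNFRSF1A, the main TNF receptor, stood at 4.44 FPKM (CV 8.999%), and TNFRSF1B at 0.0239 with MIR7846. IL1R1, the signalling interleukin 1 receptor, lay at 0.826 FPKM with 158 counts (CV 12.6%), below its accessory chain IL1RAP at 2.62 and the decoy IL1R2 at 2.45. For interleukin 17, IL17RA stood at 2.32 FPKM (CV 6.20%) and IL17RC at 8.29 in its own transcripts, inside a bundle at 83.1 with VHL, CRELD1 and PRRT3-AS1. Type I interferon receptors were present too, IFNAR1 at 23.2 FPKM and IFNAR2 at 11.3, in a bundle at 23.7 with IL10RB and AP000295.9. IL10RB had 10.7 of its own in that bundle, and IL11RA 2.82 of 22.9 with GALT and RP11-195F19.29. FAS, the death receptor, had 0.151 of 3.14 with STAMBPL1. Of the 30 genes in this list, 20 loci were at or over 1 FPKM, and 19 genes by own transcripts. The list holds IL1RN, which encodes a secreted antagonist of the interleukin 1 receptor and not a receptor. IL17RD at 0.805, IL17RE at 0.726, OSMR at 0.0186, IL4R at 0.00251, and TNFRSF10A, TNFRSF10B, CD40 and IL1RN, the last 2 listed at 0, were not.

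The signalling genes downstream were nearly complete, with 42 of 47 loci at or over 1 FPKM and 41 genes by own transcripts. IRAK1 (the interleukin 1 receptor kinase) had 52.8 FPKM of its own, CHUK (IKKα) 23.1 (43.99 with ERLIN1), TYK2 35.3, IRF3 29.4 and JAK1 25.1. JAK2, the kinase of IFNGR2, stood at 1.80 FPKM with 444 counts (CV 5.30%) and IRF1 at 8.58. The 5 loci under 1 FPKM were STAT4 at 0.485, IRAK2 at 0.448, STAT6 at 0.254, IRF4 at 0.0172 and the inhibitor SOCS3 at 0.0163.

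Nucleic acid sensing was uneven: 12 of 29 loci, or 9 genes by own transcripts, were at or over 1 FPKM. Among genes of RNA sensing and response, IFIH1 (MDA5) stood at 6.57 FPKM, MAVS at 17.1, EIF2AK2 (PKR) at 12.4, ADAR at 39.9 (45.9 with RP11-61L14.6), and RIGI (RIG-I) at 1.62 of 13.6 with TOPORS, while TLR3, which binds double-stranded RNA, stood at 0.0162. The DNA exonuclease gene TREX1 had 10.0 FPKM of its own (15.5 with ATRIP) and SAMHD1, a nucleotide hydrolase, stood at 13.7. The cytosolic DNA sensor CGAS stood at 0.0352 FPKM with 5.53 counts, its adaptor STING1 at 0.0123 with 0.349 counts, IFI16 at 0.00373 and ZBP1 at 0.00996, and AIM2 was listed at 0. TLR9 had 0.0323 of its own in a bundle at 37.1 with TWF2 and RP11-330H6.5. NLRP1 headed the list at 151 FPKM in a bundle with U7, but 99.1% of it was a transcript that GENCODE release 44 gives to another gene.

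Without cytokine, the light chain and chaperones of class I presentation were abundant and its immunoproteasome subunits were not. B2M, the light chain of every class I molecule, stood at 765 FPKM (10560 counts, CV 1.93%), CALR at 615, PDIA3 at 416 and CANX at 306, and the constitutive proteasome subunits PSMB5 at 154 (with AL132780.1), PSMB7 at 105 and PSMB6 at 102. Their inducible counterparts PSMB8 at 8.71 (10.2 with TAP1), PSMB9 at 0.296 (1.64 with PSMB8-AS1) and PSMB10 at 4.62 (20.3 with CTRL, LCAT, SLC12A4 and CTC-479C5.12) were lower. The peptide transporter gene TAP1 had 1.39 FPKM of its own, and NLRC5, the class I transactivator, stood at 0.458. Among the class I heavy chains only HLA-E had a usable level, 93.0 FPKM, since the others lay in HIDATA bundles. The leading transcripts of B2M and PDIA3 are annotated as nonsense-mediated decay. Length-scaled counts gave lower levels for these genes, 319 for B2M and 156 for PDIA3.

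Class II chains were near 0, as was their transactivator. HLA-DRA, HLA-DRB1, HLA-DRB5, HLA-DQA1, HLA-DQB1 and HLA-DPB1 were listed at 0, HLA-DPA1 stood at 0.0190 and HLA-DOA at 0.00206 FPKM, and CIITA had 0.0252 of its own in a bundle at 0.356 with RP11-876N24.3 and RP11-876N24.4. HLA-DMA had 0.153 and HLA-DMB 0.0172 of a bundle at 0.438 with each other, AL645941.1 and XXbac-BPG181M17.5. CD74, the invariant chain, was the exception at 38.4 FPKM (2180 counts, CV 2.70%). The factors RFXANK at 30.8, RFX5 at 13.9 and RFXAP at 8.66 were also present, and IFI30 had 6.71 of 48.1 with PIK3R2.

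Interferon-stimulated genes spanned the whole range. Of 42, 22 loci were at or over 1 FPKM and 15 were under 0.1, around a median of 1.33. IFI6 stood at 82.1 FPKM (2603 counts, CV 2.68%), WARS1 (tryptophanyl-tRNA synthetase) at 46.8, APOL2 at 16.6, TRIM25 at 12.5 (12.7 with MIR3614) and OAS3 at 10.9. IFI27 had 0.383 of 22.4 with IFI27L1. Among antiviral genes induced by interferon, IFIT1 stood at 2.60, RSAD2 at 3.78, MX1 at 1.44 and OAS1 at 5.11 FPKM, while OAS2 stood at 0.00792, GBP1 at 0.0682 and GBP5 at 0.0119, and IDO1, BST2, IFI44 and IFI44L were listed at 0.

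Secreted chemokines and cytokines were mostly absent: 38 of 49 were under 1 FPKM and 25 under 0.1. MIF stood at 343 FPKM (351 with SLC2A11 and AP000350.10) with 738 counts, CXCL12 at 41.7 with 3323 counts (CV 2.81%), TGFB1 at 13.1, CX3CL1 at 8.62, TNFSF10 (TRAIL) at 5.35 and CXCL16 at 3.99. CXCL10 stood at 0.107, CCL2 at 0.727, IL6 at 0.0283, IL1B at 0.0201, TNF at 0.0925 and CXCL9 at 0.00244 FPKM, and IFNB1, IFNG, CCL5 and CCL20 were listed at 0. Surface regulators were higher. CD276 (B7-H3) stood at 106 FPKM, the complement inhibitors CD59 at 93.6 (with C11orf91) and CD46 at 87.4, CD47 at 24.8 and PVR at 21.5 (21.9 with CEACAM19). CD274 (PD-L1) stood at 1.42, ICAM1 at 0.155 (with ICAM4) and C3 at 0.00134, and VCAM1 and SERPING1 were listed at 0.

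**Figure D4:**
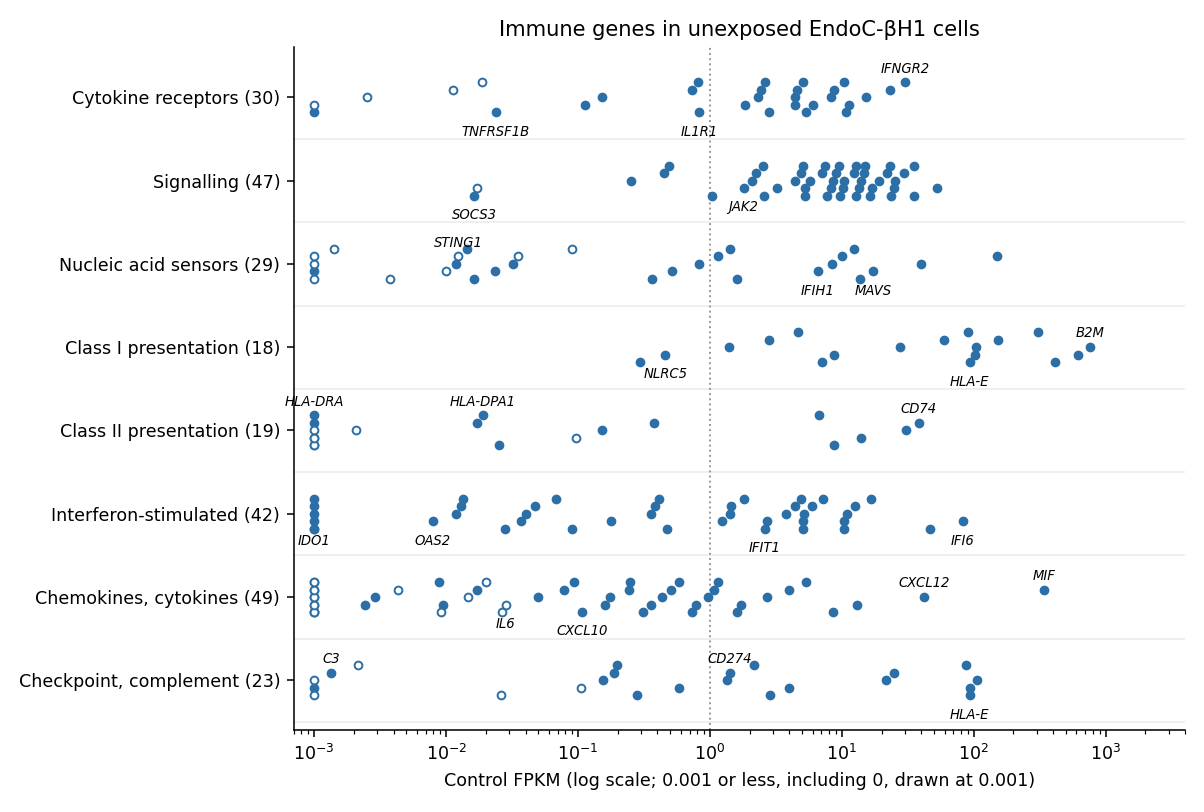
Control FPKM on a log scale for 8 lists of immune genes, with filled points for status OK, open points for NOTEST and the dotted line at 1 FPKM. Signalling genes gather above 1 FPKM, whereas class II chains and most chemokines lie below it.

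Of 15 autoantigens of type 1 diabetes, 12 had status OK and 11 of these were at or over 1 FPKM, with a median of 83.4. Besides the granule members, HSPD1 stood at 211 FPKM, GAD2 (GAD65) at 70.4 and SCG2 at 96.3, and ICA1 at 11.3 and ZNF717 at 3.40 in its own transcripts were lower. GAD1 (GAD67), at 0.856, was the only usable member under 1.

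Leading isoforms were examined in 7646 loci of at least 10 FPKM. In 4606 of them (60.2%) a single transcript held over 50% of the locus and in 2042 (26.7%) over 80%, with a median leading share of 57.4%. Among 209 single-symbol list genes of that level, 148 (70.8%) had a leading share over 50%, against 3830 of all 5998 single-symbol loci (63.9%). SCG2 was measured as 1 transcript, and the leading share was 99.9% in PCSK1N, 99.7% in INSM1, 99.4% in CHGB, 97.9% in PDX1 and ERO1B, 97.2% in FOXA2, 95.9% in QPCT, 94.2% in ISL1 and 92.9% in HEPACAM2. Intermediate shares were found for PCSK1 at 78.0%, RFX6 at 77.0%, HSPD1 at 72.4%, GAD2 at 71.2%, CPE at 69.9%, SCG3 at 69.7%, PCSK2 at 63.6%, PDIA4 at 57.1%, SCG5 at 51.8%, NKX6-1 at 47.8%, SLC30A8 at 42.3% and PTPRN2 at 33.6%. The leading NKX6-1 transcript carried no name. GENCODE release 44 types the leading GAD2 transcript as non-stop decay, and the length-scaled count of GAD2 gave 34.3 on the FPKM scale. It types those of PDIA3 (60.6%), B2M (50.8%) and SLC2A1 (42.8%) as nonsense-mediated decay, and that of PDHA1 as a retained intron. Over 5309 single-symbol loci with a leading transcript in that release, 92.5% of these transcripts were protein coding. In bundles, the leading transcript was of the listed gene at 87.8% for NEUROD1, 82.4% for NKX2-2, 72.0% for TSPAN7 and 36.4% for SSR1. The gene labelled KIAA1324 (ELAPOR1, an endosomal and lysosomal granule protein), at 65.9 FPKM, had 54.9% in its leading form. Among single-symbol list genes at 50 FPKM or over, the lowest leading shares were PAM at 15.7%, PAX6 at 17.8%, CADPS at 20.5%, CELF3 at 22.9%, MLXIPL at 26.9%, MAP2 at 30.6%, PDHA1 at 31.9% and YWHAZ at 32.6%. The 2 leading PAX6 transcripts stood at 70.3 and 69.7 FPKM. A transcript's FPKM is an estimate that splits shared fragments, and the table gives no error for it.

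Some list genes have alternative coding exons that are known to differ between tissues, and these were read from the transcripts as annotated in GENCODE release 44; the genes were chosen after their values had been seen. Shares are of the FPKM of each gene's annotated coding transcripts of status OK. These transcripts held 67.9% of the locus for PAX6, 77.4% for HNF4A, 93.4% for PKM, 95.7% for SNAP25 and 97.0% for INSR. Exon use in the remainder was not read. Exons are printed 5′ to 3′ in capitals as read from the hg38 reference genome, with the neighbouring exon ends in lower case.

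HNF4A is read from promoter P2 in beta cells and P1 in liver. The P2 first coding exon (hg38 chromosome 20 from 44355805 to 44355853, plus strand) accounted for 8.69 FPKM, or 37.2%, and the P1 exon (44401373 to 44401487) for 1.33 FPKM, or 5.69%. The rest lay mainly in a transcript whose annotated start is incomplete, so its promoter cannot be told from the table.
HNF4A P2 first coding exon: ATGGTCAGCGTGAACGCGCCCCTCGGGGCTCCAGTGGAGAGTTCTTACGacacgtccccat

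PAX6 includes or skips exon 5a, which lies in the paired domain and alters the DNA it binds. Transcripts with exon 5a (chromosome 11 from 31801871 to 31801912, minus strand) summed to 85.8 FPKM of 268, or 32.0%. The INSR exon 11 (chromosome 19 from 7150497 to 7150532, minus strand), whose inclusion gives receptor isoform B, was held by 1.26 FPKM of 10.7, or 11.8%. Both are printed with the flanking exon ends in lower case and the cassette exon in capitals.
PAX6 exon 5a: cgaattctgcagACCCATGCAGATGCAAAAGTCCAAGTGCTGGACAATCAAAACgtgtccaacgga
INSR exon 11: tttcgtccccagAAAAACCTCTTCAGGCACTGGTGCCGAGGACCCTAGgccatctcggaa

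SNAP25 uses exon 5a or the mutually exclusive exon 5b. Exon 5a (chromosome 20 from 10292882 to 10292999, plus strand) was held by 34.3 FPKM (58.8%) and exon 5b (10293161 to 10293278) by 24.0 FPKM (41.2%). Their sequences, in capitals, are of equal length.
SNAP25 exon 5a: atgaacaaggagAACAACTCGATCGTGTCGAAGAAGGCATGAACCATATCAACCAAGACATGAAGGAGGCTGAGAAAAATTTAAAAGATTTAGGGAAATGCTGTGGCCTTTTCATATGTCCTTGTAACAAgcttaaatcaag
SNAP25 exon 5b: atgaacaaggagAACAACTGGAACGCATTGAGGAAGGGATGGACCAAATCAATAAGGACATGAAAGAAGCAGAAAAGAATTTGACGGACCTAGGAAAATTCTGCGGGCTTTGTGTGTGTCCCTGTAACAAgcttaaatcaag

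PKM is spliced to exon 9 in adult muscle and brain, giving PKM1, and to exon 10 in proliferating and fetal cells, giving PKM2. Exon 10 (chromosome 15 from 72202454 to 72202620, minus strand) was held by 258 FPKM (97.8%) and exon 9 (72203022 to 72203188) by 1.57 FPKM (0.596%).
PKM exon 9: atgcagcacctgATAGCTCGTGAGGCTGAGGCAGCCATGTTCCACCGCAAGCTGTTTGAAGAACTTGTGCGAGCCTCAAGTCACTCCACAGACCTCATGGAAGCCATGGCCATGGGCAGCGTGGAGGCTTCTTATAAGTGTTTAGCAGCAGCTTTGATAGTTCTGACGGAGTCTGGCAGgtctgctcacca
PKM exon 10: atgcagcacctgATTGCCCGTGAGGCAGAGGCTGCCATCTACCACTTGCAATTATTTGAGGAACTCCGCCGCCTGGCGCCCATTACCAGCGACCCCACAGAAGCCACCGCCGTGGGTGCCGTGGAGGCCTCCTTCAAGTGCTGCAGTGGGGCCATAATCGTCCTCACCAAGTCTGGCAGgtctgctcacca

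**Figure D5:**
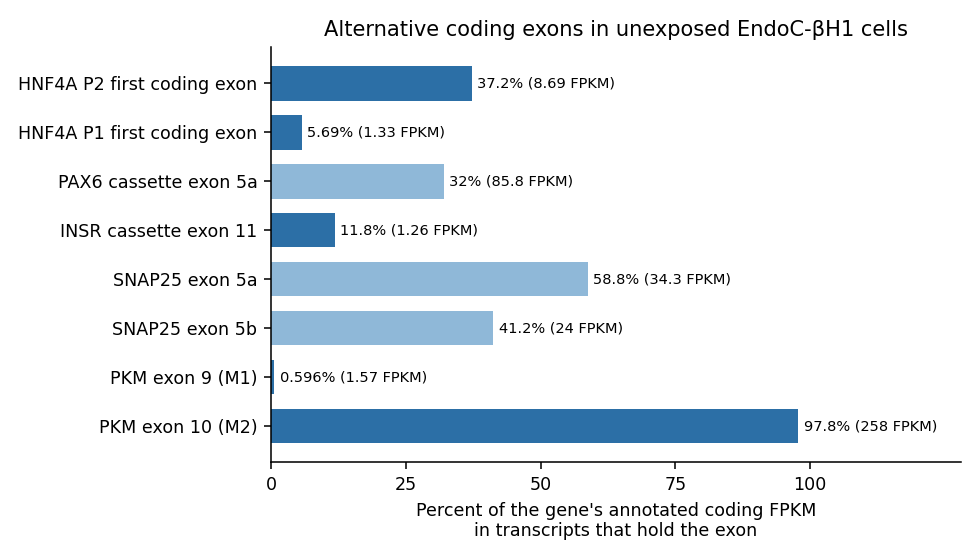
Share of each gene's annotated coding FPKM in transcripts that hold the exon, as bars from 0, with the FPKM in parentheses. Exon 10 of PKM holds nearly all of its gene's FPKM, whereas SNAP25 divides 58.8% to 41.2%.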

How the data were processed

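Messenger RNA of 3 unexposed EndoC-βH1 libraries was analysed; the 3 cytokine libraries entered only through the authors' fold changes. Poly(A) RNA was made into directional libraries with inserts of 200 to 500 bases, per the labels' protocols. Per the submitters' processing notes, the tools were Cuffdiff 2.2.1 for FPKM, DESeq for counts, and upstream of these STAR 2.5.2b, StringTie, bcl2fastq and FastQC 0.10.1, on build hg38; no annotation, read counter or strand setting is named. FPKM values are Cuffdiff's control group values as deposited, per the file headers, with 1 value per locus or transcript. In the deposited count tables the signal is a mean of normalised counts over all libraries, and the log2 values are the deposited fold change and its standard error, per the file headers.

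The control mean and its CV were computed from that mean, fold change and standard error, for 3 libraries a group with equal size factors. The formula was checked on simulated counts of known dispersion and unequal size factors. Their standard errors came from the same relation that the formula inverts. That check therefore does not cover dispersions or fold changes as DESeq estimates them. A set of 701 genes in 33 lists was matched by symbol, 700 with success (all but PRSS2), 7 of them through older symbols, and 114 lay in bundles of several symbols. Of 10621 single-gene loci, 93.1% overlapped the gene of that symbol in GENCODE release 44, which gave coordinates, exons and lengths. Named genes were the 25 most abundant single-symbol loci, the 6 highest of each list, the members under 1 FPKM where 8 or fewer and otherwise the defining ones, and for isoforms the granule, processing, factor and autoantigen members at or over 50 FPKM with the 8 lowest leading shares. Further members named beside them were chosen after their values were seen, as were the scaling of CHGA and the exons. Some list members are not reported here by name. The members and lists were chosen with earlier results of these data known. Scripts ran on Python 3.11.15 with numpy 2.4.6, pandas 2.3.3, matplotlib 3.10.9 and scipy 1.17.1. Alternatives were the FPKM minimum, the status filter, single-symbol loci, sums of isoforms, other isoform thresholds and ranking by counts.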

Additional observations from a re-analysis of the deposited data

How the results depend on the processing

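The number of loci at or over 1 FPKM (14362) ranged from 10947 with single-symbol loci to 16821 with a minimum of 0.5 FPKM, and the share in the 25 most abundant loci (6.71%) from 6.596% to 8.44%. Loci whose leading isoform held over 50% numbered 4606, against 2042 with a share over 80% and 1244 in loci of at least 50 FPKM, which are stricter by construction. Ranked by counts, which are not per length, 5 of the 25 most abundant loci by FPKM were among the first 25. Of the 33 list counts, 3 moved by over 1.5 times with a minimum of 2 FPKM, 6 with single-symbol loci and 1 with own transcripts; of the 33 list medians, 18 moved with NOTEST genes included and 18 with own transcripts. CHGA went from a listed 0 to 1956 FPKM with the scaled count. No paired analysis was possible because the tables hold no values per library, and for the same reason no library could be left out in turn. A level near 0 rests on a few counts, and levels in bundles, HIDATA loci and single-exon genes are the least certain.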

Other observations

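Several groups outside the lists were high; these genes were chosen after their values were seen. Genes of lipid synthesis included SCD (fatty acid desaturase) at 519 FPKM with 124287 counts (CV 1.19%), HMGCS1 at 165, SREBF2 at 124, FASN at 107 and SQLE at 74.0 FPKM. Imprinted genes were uneven. PLAGL1 had 191 FPKM in its own transcripts and 402 in its bundle, MEST stood at 219, NDN at 172, PEG10 at 74.4 and NNAT at 30.1, MEG3 had 139 of its own, and DLK1 and CDKN1C are given above. In contrast, PEG3 stood at 0.192 in a bundle with ZIM2, GRB10 at 0.737 and KCNQ1OT1 at 0.221 FPKM. IGFBP5 stood at 319 FPKM, and CLU (clusterin) had 572 of its own in a bundle at 1020.1. SLC18A3, the vesicular acetylcholine transporter, stood at 37.3 FPKM with 0 counts, whereas CHAT, which makes acetylcholine and whose gene surrounds it, stood at 0.141 and the choline transporter SLC5A7 was listed at 0. The long RNA MALAT1 had 161 FPKM of its own, and NEAT1 stood at 0.211.

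The FPKM and count tables disagreed at some loci. Of 21865 OK loci, 295 had at least 1 FPKM and 0 counts, among them PCBP1 at 160, XBP1 (a factor of the unfolded protein response) at 113 and TRMT112 at 111 FPKM. In the other direction, 29 loci of status NOTEST listed at 0 FPKM had at least 1000 counts, and 18 of these loci lay on X or Y. SLC25A6, CD99 and VAMP7 were each among them as a pair of entries, so loci outnumber genes here. Of the OK loci, 3922 carried no gene name, and the highest of them stood at 1123 FPKM, 11th of all.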
